A study of Equus caballus with 4 samples.

Results

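The interferon genes and the genes of their receptor chains were examined in equine satellite cells (ESC), the stem cells of skeletal muscle, which fuse into myotubes when they differentiate. The members were IFNB1, IFNG, IFNK and IFNE (the interferons) and IFNAR1, IFNAR2, IFNGR1, IFNGR2 and IL10RB (the receptor chains), that is 9 of the 13765 genes with a symbol on the array. A probe belonged to a member when it was not a control and its gene name in the scanner files was that of the member. By this rule 6 members had 14 probes. The other 3 members had no probe under their own symbol, but the descriptions in the files name them: IFNE is listed under a transcript number with 2 probes, IFNGR1 as IFNR1 with 1 probe and IFNGR2 under a transcript number with 1 probe. This gave 18 probes for the 9 members.

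The HMB-treated group consisted of ESC from *m. semitendinosus* on day 3 of differentiation, kept for 24 h in 50 µM HMB (β-hydroxy-β-methylbutyrate, a metabolite of leucine) and exposed to 3 mM H2O2 during the last 1 h. The control group was exposed to H2O2 without HMB, so both groups had met the peroxide and cells without it were not part of the comparison. Each of the 4 Agilent arrays carried both RNAs, the HMB-treated RNA in Cy5 and the control RNA in Cy3, with no dye swap, and all 4 arrays lay on 1 slide. The cells came from young stallions and the culture with the best scores was selected in the study, and the control carries the number 1 in the description of every array, although 4 control replicates are stated for the design. Therefore the 4 replicates need not be 4 horses, the control may be a single RNA, and the p-values measure the spread between these arrays. A dye effect of a probe cannot be told apart from an effect of HMB.

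Interferons are secreted proteins by which cells warn each other of infection. Interferon beta (IFNB1), kappa (IFNK) and epsilon (IFNE) are type I interferons and bind a receptor made of the IFNAR1 and IFNAR2 chains, whereas interferon gamma (IFNG), a product mainly of T and natural killer cells, binds IFNGR1 and IFNGR2. IL10RB is a shared chain of the receptors for interferon lambda and for cytokines of the interleukin-10 family. Both receptors signal through Janus kinases and STAT proteins to antiviral and antigen-presentation genes, and cells that are not immune cells, muscle cells included, commonly carry both receptors and can make IFNB1 when sensors of foreign nucleic acid are engaged.

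The probes were 60 bases long. Their positions are those the files give on EquCab1, and the exon is not given in the sources used here. The sequences of the IFNB1 probe and of the IFNG, IFNAR1 and IFNAR2 probes that overlap or adjoin each other are shown, because how far probes of a gene share bases decides how far they are separate measurements. In the IFNG lines capitals mark the 19 bases held by all 3 IFNG probes, and in the IFNAR2 lines the 56 bases held by all 5 IFNAR2 probes.
IFNB1 probe A_69_P001466: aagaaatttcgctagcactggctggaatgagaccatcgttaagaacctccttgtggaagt
IFNG probe A_69_P001506: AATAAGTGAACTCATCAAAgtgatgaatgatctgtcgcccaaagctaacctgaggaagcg
IFNG probe A_69_P001507: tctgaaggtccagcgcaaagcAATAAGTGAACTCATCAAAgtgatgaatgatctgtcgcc
IFNAR1 probe A_69_P016586: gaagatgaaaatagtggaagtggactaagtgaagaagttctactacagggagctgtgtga
IFNAR1 probe A_69_P016587: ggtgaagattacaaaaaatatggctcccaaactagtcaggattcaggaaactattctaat
IFNAR2 probe A_69_P016576: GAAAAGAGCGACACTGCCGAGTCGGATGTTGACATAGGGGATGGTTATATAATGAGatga
IFNAR2 probe A_69_P016580: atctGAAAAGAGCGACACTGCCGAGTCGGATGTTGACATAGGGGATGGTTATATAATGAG

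The IFNB1 probe lies at chr23:30408756-30408815 on the minus strand. The IFNG probes start at chr6:80327856 and chr6:80327877 on the minus strand and share 39 bases, and the third, A_69_P001508, is placed from 80327897 to 80329277, a stretch of 1381 bases that is longer than the probe. The IFNAR1 probes adjoin each other at chr26:11882696-11882755 and chr26:11882756-11882815 and share 0 bases, whereas the 5 IFNAR2 probes are shifted by single bases within chr26:11966388-11966451 and are in effect 1 probe spotted 5 times. The first IFNAR1 and the first IFNAR2 probe shown each have a reading frame of 57 bases without a stop that then closes with the codon tga. No probe of another gene held 20 bases in a row of any of the 18 member probes.

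The positions also group the members in a way the rule did not use. Of the 5 receptor chains, 4 lie side by side on chromosome 26 of EquCab1, within 163 kb: IFNGR2 at 11803268, IFNAR1 at 11882696, IL10RB at 11940559 and IFNAR2 at 11966388, all on the minus strand. IFNGR1 is on chromosome 10, at 77307245. IFNB1, IFNE (30783565) and IFNK (35650931) are on chromosome 23, and IFNG is on chromosome 6.

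The depth of an array is its signal over background, and a signal is called well above background by Feature Extraction, the scanner software. This was so for 57.7% to 60.6% of the 43603 probes in the control channel and for 55.2% to 61.8% in the HMB channel. Of 153 negative control spots, between 0 and 4 per channel were also called well above background, hence a single such call on 1 array also occurs without a target. The markers of skeletal muscle cells were present, with 9 of 9 listed markers on the array well above background in both channels on all arrays, DES, MYOD1 and MYOG among them.

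The interferon transcripts themselves were at background with 1 exception. Of the 8 interferon probes, 6 were not well above background in either channel on any array, 1 passed on a single array, and the IFNB1 probe passed in the HMB channel on all 4 arrays. No interferon probe passed on all arrays in the control channel. All 10 receptor probes, in contrast, were well above background in both channels on all 4 arrays, as were 52.0% of all probes. Of these receptor probes, 5 were the shifted IFNAR2 probes, which are in effect 1 probe.

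**Figure D1:**
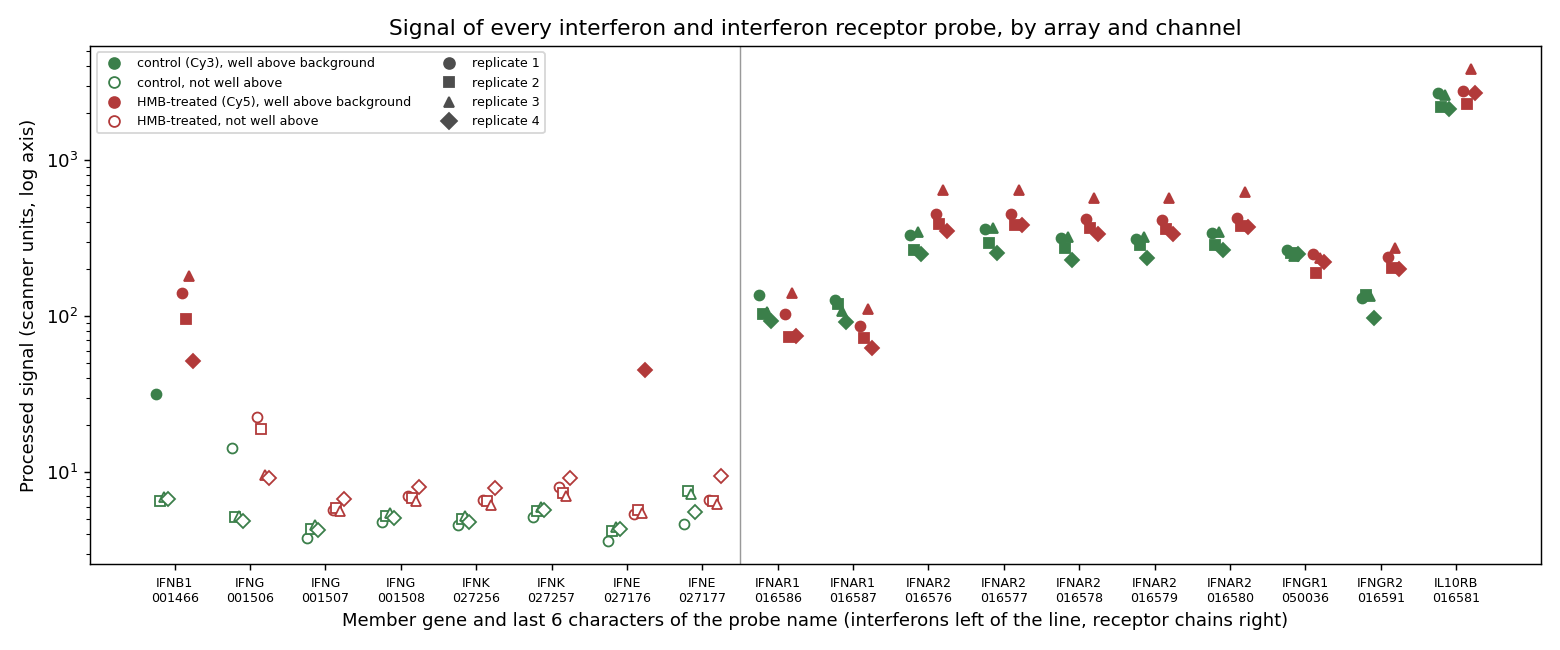
Processed signal (scanner units after background subtraction and dye normalization, log axis) of each of the 18 member probes on the 4 arrays, control in green and HMB-treated in red, with filled symbols where the signal was well above background. The 4 filled red symbols of IFNB1, from 51.6 to 180, stand above a single filled control symbol, the other interferons lie near the bottom, and all receptor probes are filled throughout.

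In the HMB-treated cells the processed signal of IFNB1 was 140, 96.5, 180 and 51.6 scanner units in replicates 1 to 4. In the control cells it was 31.7, 6.55, 6.92 and 6.69, and only the first of these was well above background. Every HMB value thus lay above every control value, and above the 95th percentile of the negative control spots in that channel, which ranged from 8.23 to 15.6 between arrays. The brightest negative control spot in that channel gave 146 units on replicate 1 and 209 on replicate 4, above IFNB1 on those arrays. On replicates 2 and 3 it gave 85.2 and 25.2, below IFNB1. How many of all probes had HMB values wholly above control values is not given here.

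The log2 ratio of IFNB1 (HMB-treated over control) was 2.14, 3.88, 4.70 and 2.95 on the 4 arrays, with a mean of 3.42 ± 1.11 (SD, n = 4). A gene was called where the adjusted p was at most 0.05 and the fold change (FC) at least 1.3, and IFNB1 met both (limma adjusted p = 9.24e-04). It entered the test through the HMB channel only, in which it is high, so this p is that of ratios over a control near background, and with both channels required IFNB1 was not tested. Of the 24670 tested probes 28.6% were called, 12.1% higher and 16.4% lower. The control was measured on 1 array and was not well above background on 3. On replicates 2 and 3 its signal was a surrogate that the software puts in place of a signal at background. The ratios of 3.88 and 4.70 are thus not ratios of 2 measured signals, and they enter the mean of 3.42. Where the control was not measured it was set at the lowest signal well above background on that array. The rise was then 4.46-fold on average over the 4 arrays, from 2.73-fold on replicate 4 to 7.51-fold on replicate 3. For replicates 2 to 4 these are approximate lower bounds. On replicate 1, where both channels were measured, the rise was 4.41-fold. With normexp background correction, which adds 50 units to every signal, the log2 ratio was 0.63 (limma adjusted p = 0.0134), and with no background correction it was 1.00.

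The pattern of IFNB1, well above background in the HMB channel on all arrays and in the control channel on at most 1, was shared by 233 of the 43603 probes (0.534%). The reverse pattern was seen for 392 probes (0.899%).

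For IFNG, 3 probes gave no signal well above background in either channel on any array, hence IFNG did not reach the criterion and no ratio was tested. The brightest of them, A_69_P001506, gave 22.6, 18.8, 9.57 and 9.16 units in the HMB channel and 14.4, 5.18, 5.20 and 4.90 in the control channel. Its HMB signal was above the 95th percentile of the negative control spots on 3 arrays and its control signal on 1. The software marked it as positive and significant on 4 arrays in the HMB and on 1 in the control channel. Its log2 ratios were 0.65, 1.86, 0.88 and 0.90, with a surrogate as the control signal on replicates 2 to 4. Its neighbour A_69_P001507, with 39 of the same bases, gave 5.66 to 6.74 units in the HMB channel and 3.81 to 4.61 in the control channel, within the range of the negative control spots. Thus the faint signal of the first probe was not seen by the second.

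The 2 IFNK probes gave 6.20 to 9.24 units in the HMB channel and 4.55 to 5.99 in the control channel, and both channels were at background on every array. IFNE was at background too, except for A_69_P027176 in the HMB channel of replicate 4, which gave 45.1 units against 5.42 to 5.70 on the other 3 arrays. The second IFNE probe, which shares 11 bases with it, gave 9.44 units on that array and was not well above background. The files therefore bound these transcripts by the background of the arrays, and changes below it could not be seen.

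Other interferons on the array gave the same picture in most cases. IFNA1, IFN-OMEGA1 and IFN-OMEGA2 were not tested because they did not reach the background criterion, and IFND2 passed on 3 arrays in the HMB channel only. IFND1, of the interferon delta family, had 7 probes, and its brightest probe was well above background throughout but was not called (limma adjusted p = 0.230), at 0.12 ± 0.15 on the log2 scale (SD, n = 4). The receptor chain of interferon lambda, IFNLR1, was at background on all arrays.

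Of the 5 receptor genes, represented by their brightest probe, 2 were called higher, IFNGR2 and IFNAR2, and 0 were called lower. With IFNB1, this made 3 of 6 tested member genes called, all higher, and with both channels required well above background it was 2 of 5. Over the 8486 tested genes, 27.3% were called, 10.0% higher and 17.3% lower. At an unadjusted limma p below 0.05, IL10RB was higher as well and none of the 5 was lower.

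IFNGR2, the signalling chain of the interferon gamma receptor, gave 239, 205, 274 and 202 units in the HMB channel and 130, 136, 136 and 97.7 in the control channel. The groups did not overlap, though the share of all probes for which this held is not given here. Its log2 ratios were 0.87, 0.59, 1.02 and 1.05, with a mean of 0.88 ± 0.21 (SD, n = 4) or an FC of 1.84 (limma adjusted p = 6.66e-04). With normexp the ratio was 0.47 and was still called.

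IFNGR1, the chain that binds interferon gamma, gave 249, 188, 238 and 224 units in the HMB channel and 267, 255, 245 and 250 in the control channel. The groups overlapped slightly, the highest HMB value lying above the lowest control value. Its log2 ratio was -0.10, -0.44, -0.04 and -0.16, below 0 on all 4 arrays, with a mean of -0.19 ± 0.18 (SD, n = 4). This did not pass the test (limma adjusted p = 0.111), and its 95% interval from -0.39 to 0.01 includes both no change and a modest fall.

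The 2 chains of the interferon gamma receptor differed from each other on every array. The log2 ratio of IFNGR2 exceeded that of IFNGR1 by 0.97, 1.03, 1.06 and 1.21, on average by 1.07 ± 0.10 (SD, n = 4). The exact two-sided sign-flip permutation test found 2 of 16 sign assignments as extreme, the fewest that 4 arrays allow, so no threshold could be passed.

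IFNAR2, the high-affinity chain of the type I receptor, gave 453, 387, 641 and 386 units in the HMB channel with its brightest probe, A_69_P016577, and 362, 296, 366 and 256 in the control channel. The lowest HMB value lay above the highest control value, and here too the share of all probes for which this held is not given. The log2 ratios were 0.33, 0.39, 0.81 and 0.59, with a mean of 0.53 ± 0.22 (SD, n = 4) or an FC of 1.44 (limma adjusted p = 0.00547). All 5 probes were called, with mean log2 ratios from 0.51 to 0.60 and adjusted p-values from 0.00275 to 0.00668. Between the probes the SD was 0.04, against 0.22 between arrays, so that the shifted probes repeated each other closely and the arrays carried the error. The rise was small: it was not called by treat, which tests the FC of 1.3 itself (adjusted p = 0.431), nor by the methods' t-test after correction over all probes (adjusted p = 0.0534).

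IFNAR1, the partner chain, gave a different result. Its brightest probe, A_69_P016586, gave 103, 73.8, 141 and 74.2 units in the HMB channel and 136, 103, 107 and 93.6 in the control channel, and the groups overlapped. The log2 ratios were -0.41, -0.49, 0.40 and -0.33, with a mean of -0.21 ± 0.41 (SD, n = 4), which was not called (limma adjusted p = 0.298, 95% interval -0.57 to 0.16). Replicate 3 stood on the other side of 0 from the rest, and without it the log2 ratio was -0.41 and was called (limma adjusted p = 0.0122).

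The adjoining IFNAR1 probe, A_69_P016587, gave log2 ratios of -0.56, -0.71, 0.04 and -0.56, with a mean of -0.45 ± 0.33 (SD, n = 4), and was called lower (limma adjusted p = 0.0290). It lay below the first probe on every array, by 0.24 ± 0.09 (SD, n = 4) on the log2 scale. Its call was lost in 9 of 19 alternatives, among them leaving out replicate 1, 2 or 4. IFNAR1 was thus not shown to change, and its probes did not give the same call.

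The log2 ratio of IFNAR2 exceeded that of IFNAR1 by 0.73, 0.87, 0.41 and 0.93 on the 4 arrays, on average by 0.74 ± 0.23 (SD, n = 4). The exact two-sided permutation test again found 2 of 16 assignments as extreme. These were the 2 pairs compared, and the correction over both did not change p. A constant shift of an array, as in the spike-in scaling, leaves such differences as they are, but other processing does not. With normexp they were 0.52 for the type I chains and 0.56 for the interferon gamma chains, and over all 20 alternatives both stayed above 0. Many of these alternatives, such as other tests or filters, left the differences exactly as they were and so could not change this.

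IL10RB had the brightest member probe, with 2785, 2303, 3825 and 2691 units in the HMB channel and 2686, 2197, 2621 and 2147 in the control channel, and the groups overlapped. Its log2 ratios were 0.05, 0.07, 0.55 and 0.33, all above 0, with a mean of 0.25 ± 0.23 (SD, n = 4). It was not called (limma adjusted p = 0.0822), with a 95% interval from 0.01 to 0.49. Levels of different probes cannot be ranked against each other, because each probe has its own response.

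**Figure D2:**
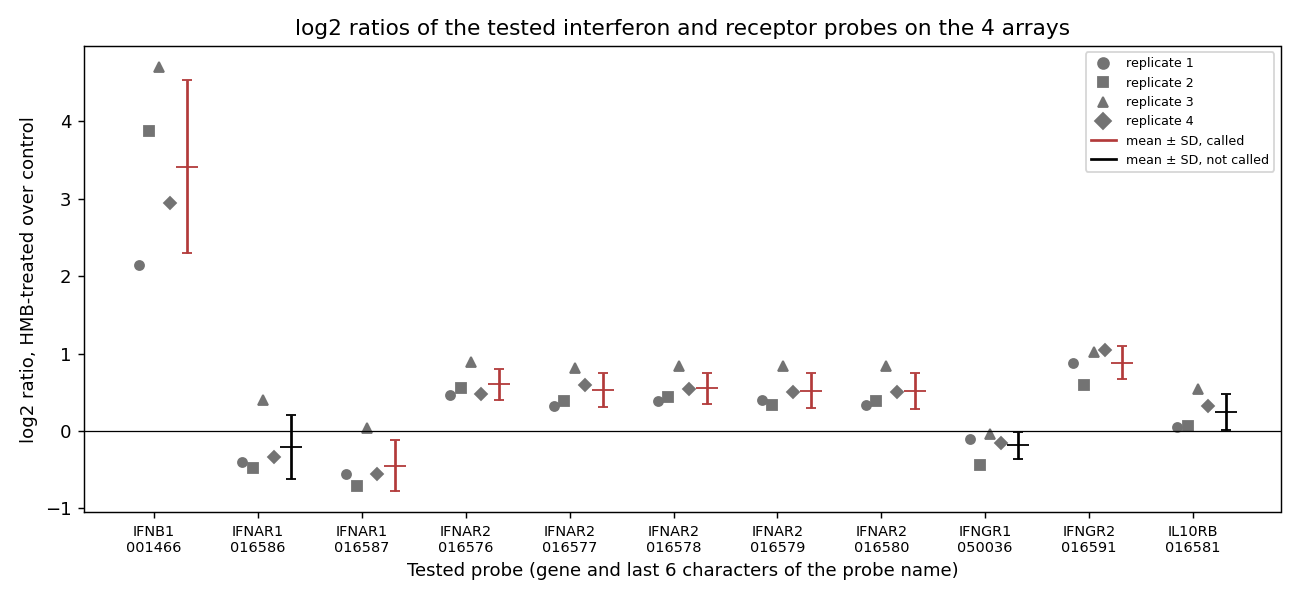
log2 ratio of HMB-treated over control for the 11 tested member probes, with 1 symbol per array and the mean ± SD over 4 arrays beside it (red where called, black where not). IFNB1 lies between 2.14 and 4.70, IFNGR2 and the 5 IFNAR2 probes lie above 0 on every array, and the IFNAR1 probes lie below 0 except in replicate 3.

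The receptor results depend on what is held equal between the channels. The spike-in RNA of the arrays read 0.37 to 0.57 above the expected log2 ratio, and shifting each array by this amount, an alternative added with these values known, moved the median of all tested probes from -0.07 to -0.56. Of the called probes 42.5% were higher before the shift and 6.71% after it. On that scale IFNB1 (2.93) and IFNGR2 (0.39) were still called higher, IFNAR2 was 0.04 and was not called, IL10RB was -0.24 and was not called, and IFNAR1 (-0.70) and IFNGR1 (-0.67) were called lower.

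Genes whose ratios on the 4 arrays were most like those of a called member were sought among 8469 genes by the root mean square difference of log2 ratios. For IFNB1 they were TLR2, a receptor for microbial lipoproteins, TNFSF15, a cytokine of the tumor necrosis factor family, and NFKBIZ, a regulator of NF-κB, at differences of 0.42, 0.57 and 0.68. For IFNAR2 they were ENPP5 (0.05), WDFY1 (0.09) and LPAR2, a lysophosphatidic acid receptor (0.09), and for IFNGR2 they were ELF2, an ETS transcription factor (0.04), ITGBL1 (0.05) and TIFA, an adaptor of TRAF6 (0.10). The likeness to IFNB1 was taken over all 4 arrays, and on 3 of them its control was not well above background.

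The genes that carry the signal from the receptors were counted over a list of 17, of which 14 were on the array and 12 were tested. The test called 4 of the 12 higher and 1 lower, against 10.0% higher and 17.3% lower over all tested genes. The list had a median log2 ratio of 0.16 against -0.09 over all tested genes. The kinase JAK2 rose to a log2 ratio of 2.36 ± 0.24, whereas JAK1, which serves both receptors, was at 0.03 ± 0.14 and was not called (SD, n = 4). STAT2 (0.70 ± 0.23) and IRF9 (1.78 ± 0.19), transcription factors of type I interferon signalling, rose on all 4 arrays. USP18, which binds IFNAR2 and restrains type I signalling, rose by the largest amount in the list, 4.03 ± 0.34. PIAS3, an inhibitor of STAT proteins, fell by 0.43 on the log2 scale, and this call was lost with normexp, among other settings.

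The genes that lead to the production of interferon beta were counted over a list of 18, of which 15 were tested. The test called 9 of them higher and 0 lower, against 10.0% and 17.3% of all tested genes, at a median log2 ratio of 0.67. IKBKE, among those called, was well above background in the control channel on 2 arrays, so it was tested through the HMB channel only. With both channels required, 8 genes of this list were called higher. The largest rises were those of the RNA sensors IFIH1 (5.36 ± 0.49), TLR3 (4.17 ± 0.10) and DDX58 (3.61 ± 0.29) (SD, n = 4). The adaptor of the cytosolic RNA sensors, MAVS, was at -0.12 ± 0.22 and was not called.

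Targets of both interferon types made up a list of 28, of which 22 were tested. Higher calls were made for 21 and lower calls for 0, against 10.0% and 17.3% of all tested genes. The median log2 ratio was 3.12, and all 22 were above 0 on all 4 arrays. RSAD2, an antiviral enzyme, was not well above background in the control channel on any array, so it was tested through the HMB channel only. Its rise is therefore a bound, 9.0-fold on average over the arrays and 5.68-fold on replicate 4, the lowest. The limma adjusted p of 5.35e-06 is that of its ratio over background. With RSAD2 at its bound the median of the list was again 3.12. BST2 was well above background in the control channel on 3 arrays, so it too was tested through the HMB channel only. With both channels required, 19 genes of this list were called higher. Among the genes measured in both channels on all arrays, SAMD9L (5.30 ± 0.28) and HERC6 (4.82 ± 0.48) had the largest ratios (SD, n = 4). OASL, at 0.31 ± 0.23 (SD, n = 4) with its brightest probe, was the gene that was not called. Of the 2 OASL probes tested, however, 1 was called. With the mean over the probes of a gene, 22 genes of this list were called higher.

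Targets chiefly of interferon gamma made up a list of 19, of which 11 were tested. Here 10 were called higher and 0 lower, against 10.0% and 17.3% of all tested genes, at a median log2 ratio of 1.74. The chemokine CXCL10 (6.18 ± 0.37), the guanylate-binding protein GBP5 (3.78 ± 0.21) and the chemokine CXCL11 (3.35 ± 0.78) had the largest ratios (SD, n = 4). CXCL11 was well above background in the control channel on 3 arrays, so it was tested through the HMB channel only. With both channels required, 9 genes of this list were called higher. CXCL9, a chemokine that depends mainly on interferon gamma, was at -0.34 ± 0.38 and was not called, and CIITA and CD74, of antigen presentation, did not reach the background criterion. Many of these genes also answer to type I interferon, so the list does not separate the 2 ligands. The class II cytokines and receptors other than the members were mostly at background, with 3 of 16 genes on the array tested and 0 called (limma, adjusted p and FC as above). One of them, F3, had an adjusted p of 0.0196 but an FC below the limit.

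**Figure D3:**
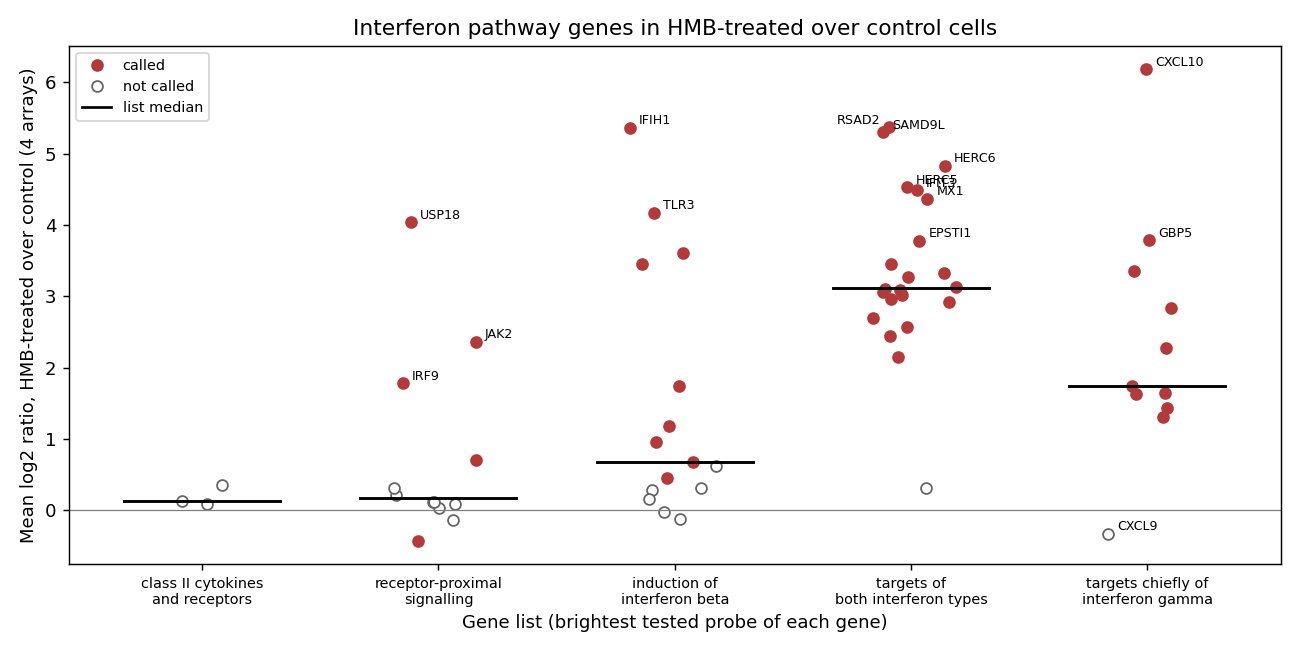
Mean log2 ratio over 4 arrays of the brightest tested probe of each gene in 5 interferon pathway lists, red where called and open where not, with the list median as a bar. The medians are 0.12, 0.16, 0.67, 3.12 and 1.74 from left to right, and CXCL10 at 6.18 is the highest gene.

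Markers of other cells were read beside these results. Of the 12 T and NK cell markers, 8 were not well above background in either channel on any array, CD3E, CD3G, CD247, CD2 and CD4 among them, and the summed signal was 202 to 293 units in the control and 219 to 284 in the HMB channel. Of the 3 that were tested, NKG7 was called higher (0.63 ± 0.30), CD3D was at -0.04 ± 0.17 and was not called, and PRF1 was at -0.37 ± 0.20, below 0 on all 4 arrays but under the FC limit (SD, n = 4). Of the 12 macrophage and dendritic cell markers 8 were on the array, ITGAM, CD86, AIF1 and FLT3 were at background, and the summed signal, mostly CD68 and CD14, was 3712 to 4485 units in the control and 4195 to 6249 in the HMB channel. CD68 was called higher (0.88 ± 0.20) and CD14 (0.20 ± 0.19) was not called (SD, n = 4). CSF1R and IRF8 did not reach the background criterion and were not tested. Their ratios were -1.10 ± 0.43 for CSF1R, below 0 on all 4 arrays, and 0.32 ± 0.29 for IRF8 (SD, n = 4). The 4 keratinocyte markers on the array were not tested, nor were the 5 endothelial markers, as they did not reach the background criterion.

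Markers of the cultured cells differed between the channels too. Of the 9 muscle markers 7 were called lower, against 17.3% of all tested genes, with a median log2 ratio of -1.10. MYOD1 (0.32 ± 0.25) and MYOG (0.03 ± 0.22) were not called (SD, n = 4). The summed signal of the 9 was 273032 to 299912 units in the control and 111435 to 167812 in the HMB channel. Of the 5 fibroblast markers 3 were called higher, PDGFRA, THY1 and DCN, against 10.0% of all tested genes. COL1A2 (-0.23 ± 0.34) and COL3A1 (0.06 ± 0.29) were not called by their brightest probes (SD, n = 4). Of the COL3A1 probes 3 of 7 were called, in a direction not given here, and of the COL1A2 probes 0 of 9. The summed signal of the 5 was 401815 to 492905 units in the control and 391293 to 613659 in the HMB channel. In bulk RNA, fewer cells of a type and less RNA per cell cannot be told apart, and the part of these markers in the ratios of the receptors and of IFNB1 was not tested.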

How the data were processed

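Cy5-labeled RNA of HMB-treated ESC and Cy3-labeled RNA of control ESC were hybridized together to 4 Agilent horse arrays. The deposited intensity values were produced by the authors with Feature Extraction (version 10.10.1.1 in the file headers), which subtracted background, detrended and normalized the dyes within each array by linear and lowess steps. Signals at background were replaced by a surrogate there, and ratios of such spots are compressed or set to 0. The deposited log10 ratios (Cy5 over Cy3) were converted to log2 here. The log10 ratios in the authors' table differed from these by at most 3.96e-05.

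Control spots and marked outlier spots were left out, 0 of the latter being member spots. Spots of a probe were averaged, and no spot was saturated. A probe was tested if either channel passed as well above background on each of the 4 arrays and at least 3 arrays gave a ratio. Limma 3.58.1 in R 4.3.3 was used with an intercept and empirical Bayes moderation, corrected by Benjamini-Hochberg over the 24670 tested probes, with thresholds of 0.05 and an FC of 1.3. A gene was represented by its brightest tested probe. Bounds were computed per channel after Aquantile normalization. The script was tested on simulated data. Symbols came from the files (24729 probes), from a RefSeq synonym (231) or from a RefSeq accession (882, TB-T2T table), and 17757 had no symbol. The members and gene lists were chosen with earlier results of these data known. All 9 members were named with every probe, called genes of the receptor-proximal list were named, as were the 3 largest changes of the other lists, and further genes were named after their values were seen. An item of the receptor-proximal list is not reported here and is left out of its counts. Alternatives covered other tests, background corrections, normalizations, GC content, filters, the authors' table and leaving out each replicate.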

Additional observations from a re-analysis of the deposited data

Results flagged for a closer look

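A single array stood apart from the other 3 for IFNE and for 5 pathway genes, by a gap to the nearest array that took most of the whole range (Dixon's test at its 95% critical value). For the IFNE probe A_69_P027176 the gap took a share of 1 of the range, since replicate 4 had a log2 ratio of 3.37 and the others 0. Those zeros were set by surrogate signals in both channels, so this share followed as soon as 1 array passed. The share was 0.969 for MX1, 0.886 for MX2, 0.843 for USP18 and 0.832 for RSAD2, and in all 4 genes replicate 4 was the lowest array, with ratios that were still high (3.77, 2.33, 3.53 and 4.66). It was 0.860 for IFND1, where replicate 4 was the highest at 0.34. Chance alone marks about 1 in 20 of such groups, and 6 of 80 were marked. Replicate 4 was the lowest array for 18 of the 22 targets of both interferon types and for 6 of the 11 targets chiefly of interferon gamma. For IFNB1 the lowest log2 ratio was that of replicate 1 (2.14).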

How the results depend on the processing

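Between 2 and 4 member genes were called in each of the 20 alternatives, against 3. IFNGR2 was called higher in all 20, with log2 ratios from 0.39 to 0.98, and IFNB1 in all 19 that tested it, from 0.63 (normexp) to 3.84. The filter on both channels left IFNB1 untested. IFNAR2 lost its call with treat, with the corrected methods' t-test (adjusted p = 0.0534) and with the spike-in scaling, and IL10RB was called with median centring (0.38). None of the member genes was called lower when settings other than the spike-in scaling were changed, except without replicate 3 (0 to 1 over the replicates left out), and 2 were with the spike-in scaling, where IL10RB changed sign to -0.24 without a call. The causes were not tested. Pathway genes called numbered 40 to 48, against 44. Of all probes, 7046 were called, but 2822 with treat, 3539 with normexp, 4440 without background correction and 18571 with the spike-in scaling. Of the called probes 42.5% were higher, but 54.6% with treat, 55.0% with normexp and 60.1% without background correction. Signal over background left IFNG, IFNK and IFNE untested and limited the FC of IFNB1 and RSAD2 to a bound. IKBKE, BST2 and CXCL11 also had a control that was not well above background on every array. Their bounds equalled their mean ratios. Each ratio already pairs the RNAs of 1 array, so no replicate block was added.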
